A study of Mus musculus with 7 samples.

Results

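The 7 genes described here encode the factors that carry the cytosolic ribosome through elongation in muscle stem cells (MuSCs). They are Eef1a1, Eef1a2, Eef1b2, Eef1d, Eef1g, Eef2 and Eif5a. They were chosen by name, as the rows whose Ensembl identifier belongs to one of these symbols, and all 7 were found among the 56748 genes listed for each library. MuSCs of adult WT mice (3 samples) and of adult mice homozygous for Jag2sm (4 samples) were compared. Jag2sm is a naturally occurring missense allele of Jag2, which encodes a NOTCH ligand. The mice came as a mixed stock, and the strain of the WT mice is not given in the sources used here. The labels write the genotype of the mutant samples as Jag2-/-, whereas the methods describe a hypomorphic allele. Cells were isolated from hindlimb muscle by magnetic sorting as CD31, CD45 and Sca1 negative and integrin α7 positive. The methods describe a serum-rich myoblast growth medium with bFGF for MuSCs, but do not say whether the sequenced cells were cultured. No difference in handling between the genotypes is described, and no other treatment or time point was part of this comparison. The labels do not say whether samples of a genotype came from separate animals or cultures, so p-values measure the spread between these samples.

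The eEF1A protein, made from Eef1a1 in most cells and from Eef1a2 in adult muscle and neurons, brings each aminoacyl-tRNA to the ribosome as a complex with GTP. The eEF1B complex, built from the products of Eef1b2, Eef1d and Eef1g, exchanges the spent GDP of eEF1A for GTP. The eEF2 protein then moves the ribosome by a codon, and eIF5A, which carries the unusual amino acid hypusine, helps at sequences where the ribosome stalls. As muscle matures, Eef1a2 is known to take over from Eef1a1.

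RNA was read as long cDNA molecules, and the reads on each gene were counted. Reads on genes ranged from 187834 in WT replicate 1 to 1937581 in Jag2sm replicate 3, and the 7 genes together held 0.397% to 0.50% of them. WT replicate 1 stood apart from the rest before any comparison. In it, 45.1% of aligned reads fell outside annotated genes (20.8% to 25.7% elsewhere), and 3 counts made 16.0 CPM, against 1.55 to 4.47 CPM elsewhere. CPM is used below for the normalized count, which is scaled by library size and by factors between libraries. Unaligned reads made up 46.0% to 50.8% of the total in Jag2sm replicates 1, 2 and 4 and 2.44% to 3.24% in the other 4 libraries. Jag2 itself was at 80.7 to 116 CPM in WT and 42.4 to 78.8 CPM in Jag2sm libraries. All 10 MuSC and myoblast markers examined were tested, Des was called lower in Jag2sm (log2 fold change -1.63, edgeR adjusted p = 0.0245), and Pax7, at 0.80, was not called (edgeR adjusted p = 0.174). Of 10 endothelial genes, Esam, Kdr and Tie1 were at 0 counts, and the list summed to 4.74 to 17.0 CPM, led by Egfl7 (32 reads), Pecam1 (18) and Tek (15). Of 10 immune genes, Adgre1, Cd3e, Lyz2 and Ptprc were at 0, and the list summed to 5.42 to 27.2 CPM, mostly Laptm5 (log2 fold change -1.74, edgeR adjusted p = 0.0760). Fibro-adipogenic markers summed to 51.9 to 100 CPM in WT and 88.7 to 188 CPM in Jag2sm libraries, mostly Gsn and Cd34, without which the sums were 5.76 to 17.5 and 3.26 to 21.4 CPM, and Dpt and Lum were at 0.

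No elongation factor gene was called between genotypes. Of the 7 genes, 6 had enough reads for a test across all genes (edgeR's quasi-likelihood test on 9489 genes, with Benjamini-Hochberg adjustment), and 0 of the 6 had an adjusted p under 0.05. DESeq2 and limma-voom also called 0 of them. At an unadjusted p under 0.05 the count was 0 of 6 with edgeR, beside 19.7% of all tested genes, and 1 (Eef1d) with each of DESeq2 and limma-voom. In the same test 6.26% of all genes were called, 1.42% as higher and 4.84% as lower in Jag2sm. The 6 log2 fold changes ran from -0.42 (Eef2) to 0.48 (Eef1d) with a median of 0.0040, beside a median of 0.049 over all genes tested. Eef1a2 had too few reads to be tested with edgeR. DESeq2, which fitted it, gave an adjusted p of 0.205 (unadjusted 0.0231).

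**Figure D1:**
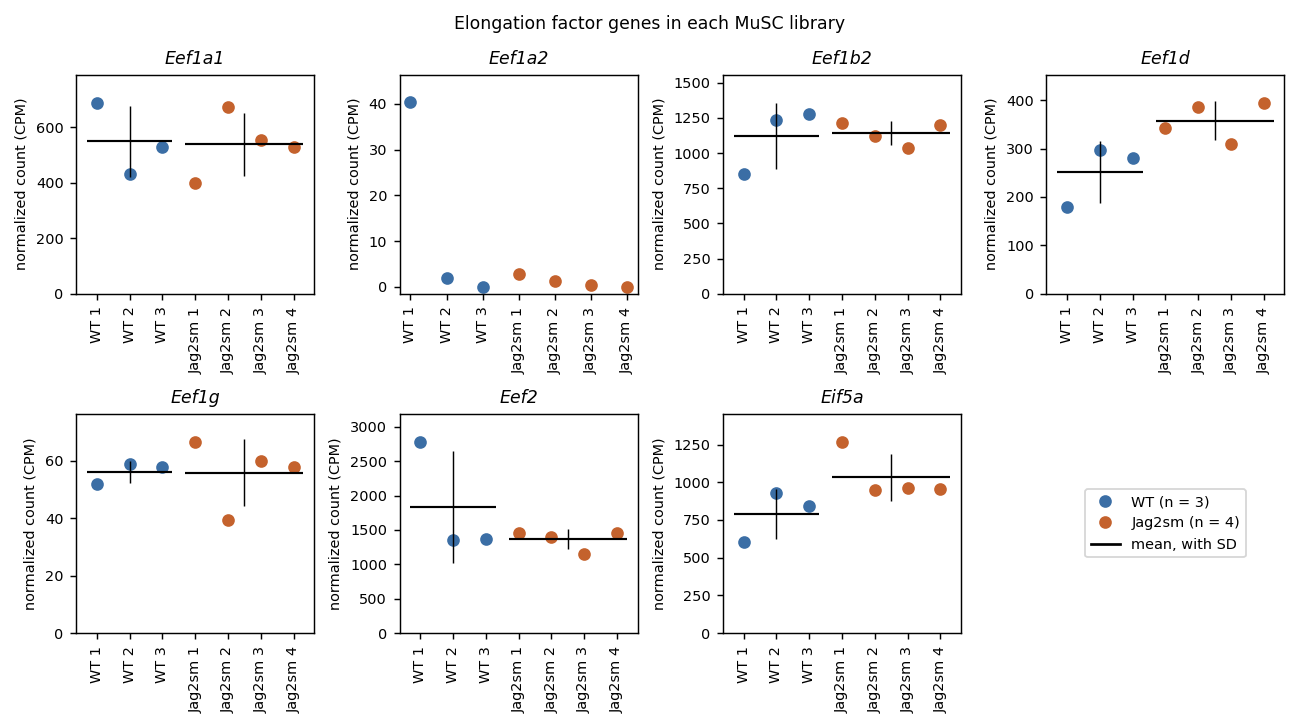
Normalized counts (vertical axis, CPM, from 0, with Eef1a2 drawn from just under 0) of the 7 elongation factor genes in each library, WT in blue and Jag2sm in orange. Black lines give the mean of a genotype with the SD, except for Eef1a2, whose 15 reads in all allow none. The WT and Jag2sm points overlap for Eef1a1, Eef1a2, Eef1b2, Eef1g and Eef2 and are apart for Eef1d and Eif5a, and WT replicate 1 is the lowest or the highest of the WT points in every panel.

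The comparison named at the outset for these genes was a switch between the paired isoforms Eef1a1 and Eef1a2. Eef1a1 lies on the minus strand of chromosome 9 (GRCm39, chr9:78384916-78396778, 8 exons) and Eef1a2 on the minus strand of chromosome 2 (chr2:180778581-180799838, 8 exons). Their coding sequences have 1389 and 1392 bases and share 80.1% of aligned bases, with 276 differences, while the encoded proteins of 462 and 463 amino acids share 92.4%. The first 120 coding bases of both genes are shown because they carry the kind of difference by which a read of one is told from a read of the other. Capitals mark the 18 bases that differ, and all 18 are at the third position of a codon.
Eef1a1: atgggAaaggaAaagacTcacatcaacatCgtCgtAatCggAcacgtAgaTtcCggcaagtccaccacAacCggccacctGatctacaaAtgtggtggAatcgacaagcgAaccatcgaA
Eef1a2: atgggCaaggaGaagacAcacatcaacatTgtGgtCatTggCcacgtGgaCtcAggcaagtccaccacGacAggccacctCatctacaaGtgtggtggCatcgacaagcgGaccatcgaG

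Eef1a2, the muscle and neuron isoform, was close to the limit of detection in both genotypes. It had 7, 3 and 0 reads in WT replicates 1 to 3 and 2, 2, 1 and 0 reads in Jag2sm replicates 1 to 4, or 15 reads in all. Of these 15 reads, 7 came from WT replicate 1, the smallest library, where they made 40.4 CPM. The other 6 libraries lay between 0 and 2.83 CPM, and the genotypes overlapped.

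As a share of Eef1a1 plus Eef1a2 reads, Eef1a2 made up 5.56% in WT replicate 1 (7 of 126 reads, exact 95% interval 2.26% to 11.1%). It made up 0.448% in WT replicate 2, and WT replicate 3 had 0 of 558 reads, which allows a share of up to 0.538%. In Jag2sm replicates 1, 2 and 3 the share was 0.707%, 0.205% and 0.0892%, and replicate 4 had 0 of 646 reads, which allows up to 0.464%. Eef1a1 thus gave nearly all reads of the pair in every library. The mean share was 2.00% ± 3.09 (SD, n = 3) in WT and 0.250% ± 0.316 (SD, n = 4) in Jag2sm MuSCs. With counts divided by annotated transcript length (13742 bases for Eef1a2, 1794 for Eef1a1), the difference in share was -0.24 percentage points. Of the 13742 bases, 11191 are 3′ untranslated sequence, while the coding lengths of 1392 and 1389 bases are nearly equal. The difference of -1.75 percentage points in the plain share was smaller than the spread between the WT libraries (exact permutation test over the 35 splits, two-sided, p = 0.257; the smallest p that this design allows is 0.0286).

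The direction of that difference rested on WT replicate 1. Without it, the difference was 0.0259 percentage points in the opposite direction. The labels give each library a batch number, equal to its replicate number, and do not say what the batch was. Libraries of both genotypes were pooled on the same flow cells. Jag2sm minus WT within batches 1, 2 and 3 was -4.85, -0.244 and 0.0892 percentage points. Pooled over libraries, Eef1a2 had 10 of 3004053 reads on genes in WT and 5 of 5254162 in Jag2sm, a log2 ratio of -1.81 (95% interval -3.71 to -0.12). Without WT replicate 1 the counts were 3 and 5 and the log2 ratio was -0.16 (-2.52 to 2.52). Intervals and limits of this kind cover counting error only, and not the spread between libraries. Eef1a2 was thus a small share of the pair in every library. With so few reads, a difference between genotypes within that share was not resolved.

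Genes of differentiated muscle, in which Eef1a2 is known to be expressed, differed strongly between the same libraries. Of 26 such genes, 24 were tested, and 23 were called lower in Jag2sm (95.8%, beside 4.84% of all tested genes). Called higher were 0 (beside 1.42%), and the median log2 fold change was -3.26. The list was chosen with earlier results of these data known. Summed over the 26 genes, normalized counts were 70270, 41800 and 47800 CPM in WT replicates 1 to 3. In Jag2sm replicates 1 to 4 they were 8278, 5344, 1756 and 10660 CPM, with no overlap. WT replicate 1 was thus the highest library for this sum as well as for Eef1a2, while WT replicate 3 had the second highest sum and 0 Eef1a2 reads. Whether the muscle genes bear on the Eef1a2 reads was not tested. In bulk RNA, fewer cells of a type and less RNA per cell cannot be told apart. Neuronal and glial markers, which stand for the other site of Eef1a2 expression, were low. Snap25, Syt1 and Elavl4 had 1 read each, and without Tubb3 the list summed to 0 to 5.69 CPM in WT and 1.97 to 14.1 CPM in Jag2sm libraries. Tubb3, a tubulin, was the one with enough reads for a test, at 0.948 to 11.5 CPM in WT and 9.90 to 34.5 CPM in Jag2sm libraries. It was called higher in Jag2sm (log2 fold change 2.64 ± 0.66 SE, edgeR adjusted p = 0.0396), although the genotypes overlapped.

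**Figure D2:**
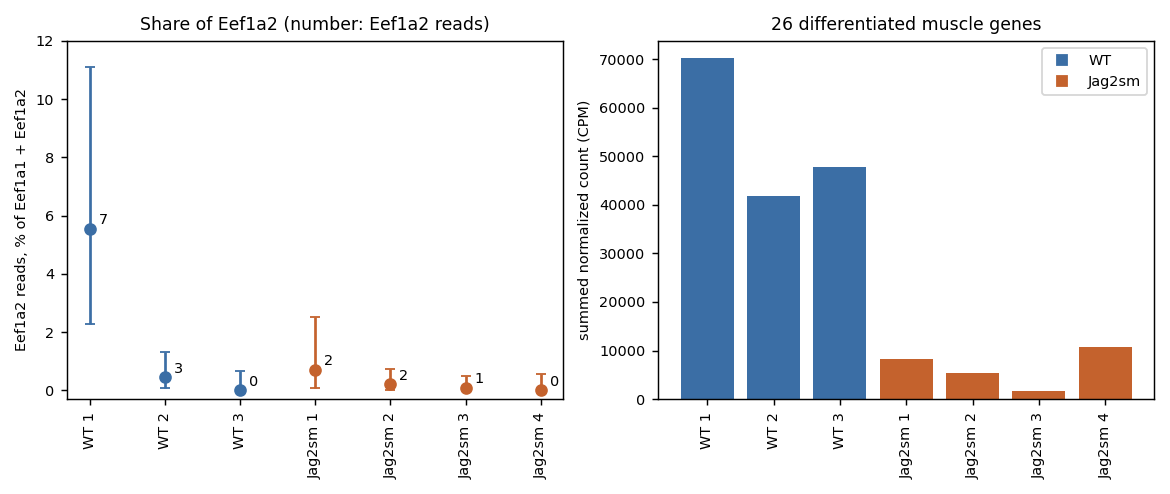
Left, Eef1a2 reads as a percentage of Eef1a1 plus Eef1a2 reads in each library, with exact 95% intervals and the number of Eef1a2 reads beside each point. Right, summed normalized counts (CPM) of 26 differentiated muscle genes in the same libraries. The share is under 1% in every library but WT replicate 1 (5.56%), whereas the muscle genes are lower in all 4 Jag2sm libraries (orange, 1756 to 10660) than in all 3 WT libraries (blue, 41800 to 70270).

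Eef1a1, the main eEF1A gene, had 119, 666 and 558 reads in WT and 281, 975, 1120 and 646 reads in Jag2sm libraries. This made 686, 431 and 529 CPM in WT replicates 1 to 3 and 397, 674, 552 and 527 CPM in Jag2sm replicates 1 to 4. The highest and the lowest library belonged to different genotypes but to the same batch, and the groups overlapped. Means were 549 ± 129 (SD, n = 3) and 537 ± 113 CPM (SD, n = 4), with a log2 fold change of -0.016 (95% interval -0.59 to 0.56, edgeR adjusted p = 0.993). Within batches 1, 2 and 3 the log2 differences were -0.79, 0.64 and 0.060, so the batches did not share a direction, and without WT replicate 1 the log2 fold change was 0.16.

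The count of Eef1a1 may have been affected by an overlapping annotation. The release used here places a miRNA gene, Gm26377, on the same strand inside the last part of the Eef1a1 transcript, at bases 1608 to 1715 of 1794, ending 79 bases before the 3′ end. Gm26377 is listed at 0 counts in every library. Counting with htseq in its default mode sets aside reads that touch the exons of more than one gene, and 8.05% to 9.74% of aligned reads per library were set aside as ambiguous. How many of these were Eef1a1 reads was not analysed here. The level of Eef1a1 may therefore be too low in every library, and the Eef1a2 share too high. Eef1d has an overlap of the same kind, with Naprt on the same strand over the last 360 bases of its transcript, and Naprt held 11 reads. On the other strand, Tigd5 (29 reads) overlaps the first 398 bases of Eef1d and Ndufs1 (1054 reads) the first 253 bases of Eef1b2. The strand setting of htseq is not given, and the effect of these overlaps on the counts was not tested.

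Among annotated genes, Eef1a1 also has 10 near-identical copies, counted as entries that may share a locus, of which 6 held 142 reads in all. Gm13456, a processed pseudogene on chromosome 2, held 87 of them, and Gm6548, on chromosome 17, held 50. Gm6548 had 0, 1 and 1 reads in WT and 3, 27, 9 and 9 reads in Jag2sm libraries. Its WT and Jag2sm normalized counts of 0 to 0.948 and 4.24 to 18.7 CPM did not overlap, and 10.3% of all tested genes likewise lay apart upwards. It was too low for the test, and with no filter on low counts its log2 fold change was 3.45 ± 0.85 SE (edgeR adjusted p = 0.0018). That setting called 1248 of 25189 genes. DESeq2 gave 3.43 and did not call it (adjusted p = 0.0651), and edgeR with the replicate number as a block gave 3.79 (adjusted p = 0.0349). Gm6548 is described here after its values were seen, and it enters these fits almost only through its Jag2sm reads (48, against 2 in WT). The fits are therefore no independent support for a difference. With all copies added to Eef1a1, the log2 fold change of Eef1a1 was -0.0063 (edgeR adjusted p = 0.999).

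By the likeness of their pattern over the 7 libraries, the genes nearest to Eef1a1 were Zc3h18, Qrich1, Trip6, Fancb and Ciz1. Their root mean square differences from Eef1a1 in centred log2 CPM were 0.053 to 0.10, where the median over all tested genes was 0.52. The same search could not be made for Eef1a2.

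The eEF1B complex exchanges the nucleotide on eEF1A, and Eef1b2 and Eef1d encode the subunits that do so. Eef1b2, on chromosome 1 (chr1:63215940-63219645, plus strand), was at 853, 1233 and 1278 CPM in WT replicates 1 to 3. It was at 1217, 1121, 1036 and 1202 CPM in Jag2sm replicates 1 to 4. All 4 Jag2sm libraries lay inside the WT range. Means were 1121 ± 234 (SD, n = 3) and 1144 ± 83.5 CPM (SD, n = 4), with a log2 fold change of 0.024 (95% interval -0.51 to 0.56, edgeR adjusted p = 0.984). Without WT replicate 1 it was -0.15, and the log2 differences within batches 1, 2 and 3 were 0.51, -0.14 and -0.30. A pseudogene on chromosome 3, Gm43712, which matches 278 coding bases of Eef1b2 at 98.9%, held another 1103 reads, with a log2 fold change of 0.025 (edgeR adjusted p = 0.981).

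Eef1d had the highest log2 fold change of the members, although it was not called. It lies on chromosome 15 (chr15:75766054-75782564, minus strand). Its normalized counts were 179, 296 and 281 CPM in WT replicates 1 to 3 and 342, 386, 309 and 394 CPM in Jag2sm replicates 1 to 4. All 4 Jag2sm libraries were above all 3 WT libraries. Means were 252 ± 63.8 (SD, n = 3) and 358 ± 39.4 CPM (SD, n = 4), with a log2 fold change of 0.48 ± 0.23 SE (95% interval -0.04 to 0.99, edgeR adjusted p = 0.294, unadjusted 0.0668). An exact permutation test on this gene alone gave its smallest possible p of 0.0286, which largely restates the separation and is not adjusted over genes. Within batches 1, 2 and 3 the log2 differences were 0.93, 0.38 and 0.14, and without WT replicate 1, in which Eef1d had 31 reads, the log2 fold change was 0.30. Among all tested genes, 10.3% likewise had every Jag2sm library above every WT library and 12.2% had every one below. Of the 6 members tested, Eef1d and Eif5a were apart in this way and none lay below.

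Measured within a library, the ratio of Eef1d to Eef1b2 was higher in all 4 Jag2sm samples than in all 3 WT samples. This ratio needs no scaling between libraries. The log2 ratio of Eef1d to Eef1b2 reads was -2.26, -2.06 and -2.19 in WT replicates 1 to 3. It was -1.83, -1.54, -1.74 and -1.61 in Jag2sm replicates 1 to 4. The mean log2 ratios were -2.17 ± 0.10 (SD, n = 3) and -1.68 ± 0.13 (SD, n = 4), a difference of 0.49. Within batches 1, 2 and 3 it was 0.42, 0.52 and 0.44, and without WT replicate 1 it was 0.44. The exact permutation test gave p = 0.0286, the smallest it can give, and p = 0.143 after adjustment over the 5 ratios examined, so the difference did not pass the correction. It was 0.48 when reads of Gm43712 were added to Eef1b2. Both genes overlap other annotated genes, and how far this bears on the ratio was not tested.

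None of the other 4 ratios separated the genotypes. The log2 ratio of Eef1g to Eef1b2 differed by -0.080, that of Eef1b2 to Eef1a1 plus Eef1a2 by 0.10, that of Eef2 to the same sum by -0.29 and that of Eif5a to it by 0.45. Without WT replicate 1 the Eif5a difference was 0.066 and the Eef2 difference -0.15, while those of Eef1b2 and Eef1g turned to -0.28 and 0.050. Their exact permutation p-values ran from 0.314 to 0.800.

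**Figure D3:**
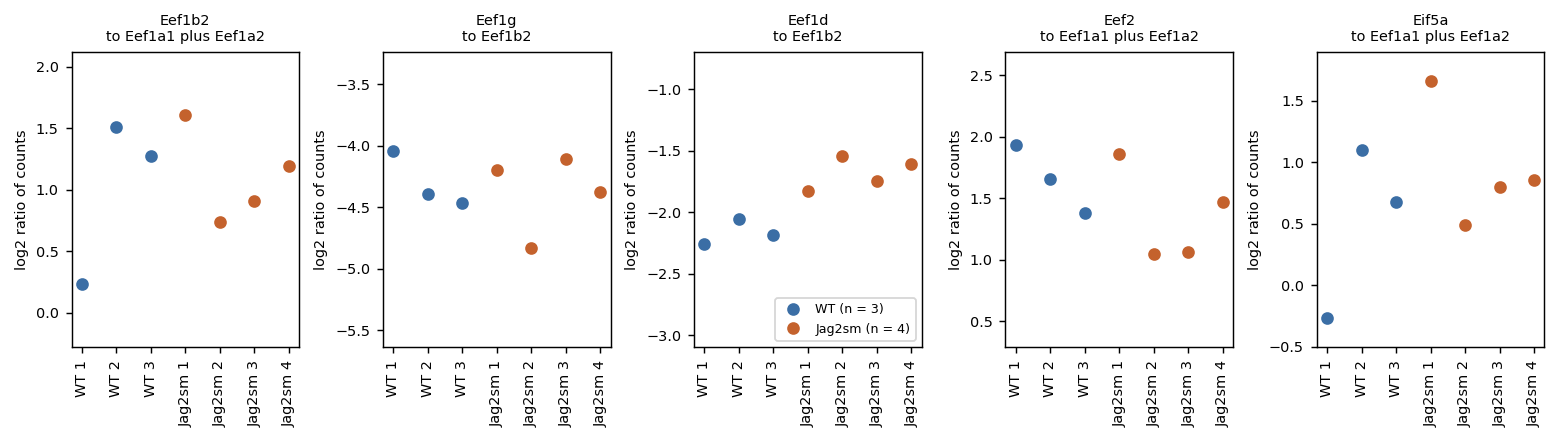
Log2 ratios of read counts within each library for 5 pairs of elongation factor genes, WT in blue and Jag2sm in orange, with all panels spanning the same number of log2 units. For Eef1d to Eef1b2 the 4 Jag2sm points (-1.83 to -1.54) lie above the 3 WT points (-2.26 to -2.06), and in the other panels the genotypes overlap.

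Eef1g encodes the structural subunit that holds the eEF1B complex together. It lies on chromosome 19 (chr19:8944369-8955843, plus strand, 10 exons) and had 458 reads in all, fewer than any other member apart from Eef1a2. Its normalized counts were 51.9, 58.8 and 57.9 CPM in WT and 66.5, 39.4, 60.1 and 57.9 CPM in Jag2sm libraries, and the 3 WT values lay inside the Jag2sm range. Means were 56.2 ± 3.76 (SD, n = 3) and 56.0 ± 11.6 CPM (SD, n = 4), with a log2 fold change of -0.041 (95% interval -0.55 to 0.46, edgeR adjusted p = 0.962).

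Most reads with an Eef1g sequence were counted on another locus. Gm4366, annotated as a processed pseudogene, is a single exon of 1342 bases on chromosome 7 (chr7:116423745-116425086, minus strand). It aligns with all 1314 coding bases of Eef1g with 5 differences, namely G246A, C676T, C712T, G759T and G1221A, where the base of Eef1g stands first, positions count from the first coding base and the base of Gm4366 stands last. Coding bases 656 to 775 of both are shown, with capitals at the 3 differences in this stretch, because this copy held most of the reads.
Eef1g: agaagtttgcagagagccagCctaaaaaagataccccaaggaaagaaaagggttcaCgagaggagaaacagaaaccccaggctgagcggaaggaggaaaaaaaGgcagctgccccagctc
Gm4366: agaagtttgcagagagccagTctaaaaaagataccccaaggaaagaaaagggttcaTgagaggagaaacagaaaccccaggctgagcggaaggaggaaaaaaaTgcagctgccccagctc

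Gm4366 had 5546 reads, against 458 for Eef1g. It was at 536, 746 and 854 CPM in WT and 536, 724, 519 and 748 CPM in Jag2sm libraries, with a log2 fold change of -0.18 (95% interval -0.75 to 0.39, edgeR adjusted p = 0.759). Eef1g thus made up 8.82%, 7.31% and 6.35% of the reads of Eef1g and its copies in WT and 11.0%, 5.16%, 10.4% and 7.18% in Jag2sm libraries. The copies held 8.06 to 18.4 times as many reads as Eef1g in a library. The mean share was 7.49% ± 1.25 (SD, n = 3) in WT and 8.43% ± 2.76 (SD, n = 4) in Jag2sm, a difference within the spread between libraries (exact permutation test, p = 0.571). Which of these reads were transcribed from Eef1g was not analysed here, because the alignments were not used. With the copies added, Eef1g was at 580 to 912 CPM, and its log2 fold change was -0.17 (95% interval -0.72 to 0.38, edgeR adjusted p = 0.770). Without WT replicate 1 that value was -0.32 (edgeR adjusted p = 0.371).

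**Figure D4:**
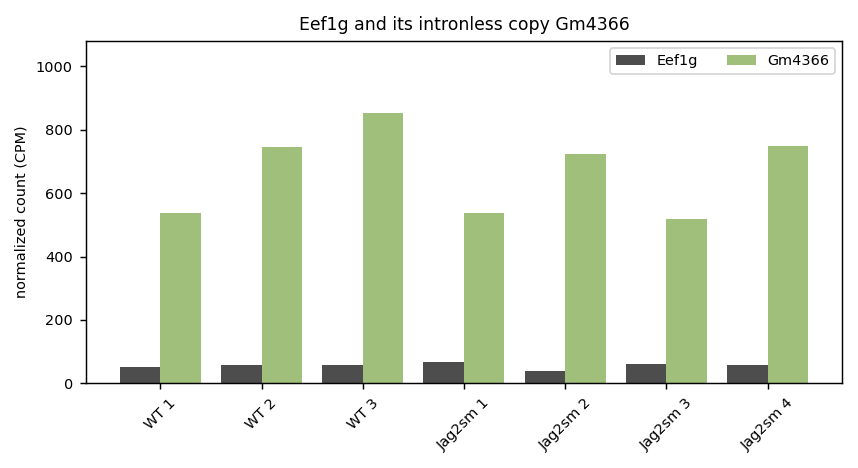
Normalized counts (CPM, bars from 0) of Eef1g and of its single-exon copy Gm4366 in each library. In all 7 libraries the Gm4366 bar (519 to 854) is several times as high as the Eef1g bar (39.4 to 66.5), and neither separates WT from Jag2sm.

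Eef2 encodes the translocase, the factor that moves the ribosome along the mRNA. It lies on chromosome 10 (chr10:81012465-81018348, plus strand). Its normalized counts were 2773, 1359 and 1373 CPM in WT replicates 1 to 3 and 1455, 1391, 1153 and 1459 CPM in Jag2sm replicates 1 to 4. WT replicate 1 was the highest library, and the other 6 lay between 1153 and 1459 CPM. Means were 1835 ± 812 (SD, n = 3) and 1364 ± 145 CPM (SD, n = 4), with a log2 fold change of -0.42 (95% interval -1.10 to 0.25, edgeR adjusted p = 0.495). Without WT replicate 1 it was -0.014. Within batches 1, 2 and 3 the log2 differences were -0.93, 0.033 and -0.25.

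Eif5a lies on chromosome 11 (chr11:69807422-69827276, minus strand) and was at 605, 926 and 845 CPM in WT replicates 1 to 3. It was at 1264, 949, 962 and 955 CPM in Jag2sm replicates 1 to 4. All 4 Jag2sm libraries lay above all 3 WT libraries, but WT replicate 2 and Jag2sm replicate 2 differed by only 0.037 on the log2 scale. Means were 792 ± 167 (SD, n = 3) and 1032 ± 155 CPM (SD, n = 4), with a log2 fold change of 0.37 ± 0.25 SE (95% interval -0.18 to 0.93, edgeR adjusted p = 0.451). The exact permutation test on this gene alone gave its smallest possible p of 0.0286. This p largely restates the separation and is not adjusted over genes, and 10.3% of all tested genes lay apart upwards. Within batch 1 the log2 difference was 1.06 and within batch 3 it was 0.19, and without WT replicate 1 the log2 fold change was 0.21. At its 3′ end Eif5a overlaps Gps2 on the other strand, which held 221 reads.

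WT replicate 1 lay at an end of the WT range for every member. It was the lowest WT library for Eef1b2, Eef1d, Eef1g and Eif5a and the highest for Eef1a1, Eef1a2 and Eef2. The same library was low in transcripts of cytosolic ribosomal proteins, which summed to 10960 CPM there and to 24330 to 29080 CPM in the other 6 libraries. Of 75 ribosomal protein genes tested, 1 was called higher and 0 lower in Jag2sm, and 66 had a positive log2 fold change (median 0.28). All Jag2sm libraries lay above all WT libraries for 10 of them (13.3%, beside 10.3% of all tested genes), and the 1.33% called higher stood beside 1.42%. The gene called was Rpsa, for a small subunit protein (log2 fold change 2.93, edgeR adjusted p = 0.0298). Unlike the summed list, Rpsa was highest among WT libraries in replicate 1. It was at 103.8, 9.05 and 13.3 CPM in WT replicates 1 to 3 and 124.2 to 231.5 CPM in Jag2sm libraries. How far the state of WT replicate 1 bears on these values was not tested.

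The order of the members depended on the scale. By normalized count, without regard to length, Eef2 was the highest member in all 7 libraries. Per kilobase of coding sequence, Eif5a and Eef1b2 were highest, with means over the 7 libraries of 1999 and 1673 normalized counts per kilobase, and their ranges of 1302 to 2718 and 1258 to 1885 overlapped. Eef2 followed at 608 (447 to 1076), above Eef1a1 at 390 (286 to 494) in all 7 libraries on the same per-kilobase scale. Eef1d stood at 158 (90.1 to 199), Eef1g at 42.7 (30.0 to 50.6) and Eef1a2 at 4.82 (0 to 29.0). Neighbours from Eef1b2 downwards kept this order in all 7 libraries, and Eif5a was above Eef1b2 in 6 of 7. With its copies added, Eef1g came to 550 per kilobase (441 to 694), beside Eef2, which was above it in 3 of 7 libraries. Where a long read stands for a whole molecule, division by length lowers long genes such as Eef2. The lengths are those of the canonical transcripts, and the isoform of each read was not given by the counts, which matters most for Eef1d with its long canonical form. On either scale the order takes the counts as they stand. The same-strand overlaps given above may lower Eef1a1 (Gm26377) and Eef1d (Naprt), and how far this changes the order was not tested.

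Other genes of translation were examined as lists. Of 19 genes that modify or regulate elongation factors, 16 were tested and 0 were called in either direction, with log2 fold changes from -0.70 to 0.80 and a median of 0.14. Dph3, which acts in making diphthamide on eEF2, had the lowest value and was at 18.7 to 23.1 CPM in WT and 11.1 to 13.0 CPM in Jag2sm libraries, without overlap (log2 fold change -0.70 ± 0.27 SE, edgeR adjusted p = 0.183). Dph7, of the same pathway, had the highest value (log2 fold change 0.80 ± 0.45 SE, edgeR adjusted p = 0.364). It was at 0, 5.17 and 9.48 CPM in WT replicates 1 to 3 and 9.78 to 13.1 CPM in Jag2sm libraries. In WT replicate 1, 3 counts made 16.0 CPM, so the 0 there does not set a level. Of the 16 genes tested, 6.25% lay apart upwards and 6.25% downwards, beside 10.3% and 12.2% of all tested genes. Eef2k, the kinase that inactivates eEF2, had a log2 fold change of 0.36 (edgeR adjusted p = 0.733). It was at 28.8, 6.46 and 7.59 CPM in WT replicates 1 to 3 and 10.6 to 14.1 CPM in Jag2sm libraries. The means of 14.3 CPM in WT and 12.1 CPM in Jag2sm ran against the sign of the fold change. Of the enzymes that make hypusine on eIF5A, Dhps had 7 reads in all and Dohh had a log2 fold change of -0.025 (edgeR adjusted p = 0.989).

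Among 37 initiation genes, all were tested, 0 were called in either direction, 3 lay apart upwards (8.11%, beside 10.3% of all tested genes) and 2 downwards (5.41%, beside 12.2%), and the median log2 fold change was 0.11. Pabpc1, the cytosolic poly(A)-binding protein, whose mRNA like those of the elongation factors carries a terminal oligopyrimidine tract, came nearest to the threshold. It was at 502, 856 and 940 CPM in WT and 1338, 2055, 1353 and 1864 CPM in Jag2sm libraries, with no overlap and a log2 fold change of 1.10 ± 0.30 SE (edgeR adjusted p = 0.0607). The call depended on the processing, since DESeq2 gave an adjusted p of 0.0025 and limma-voom one of 0.0345. Over the 17 alternatives its log2 fold change was 0.87 to 1.26 and its adjusted p 0.0025 to 0.171, with a call in 5. The lowest value was that of Eif4a1, an RNA helicase (log2 fold change -0.81, edgeR adjusted p = 0.349).

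Of 13 genes of mTOR signalling and control of oligopyrimidine mRNAs, all were tested, 0 were called, and 9 had a negative log2 fold change (median -0.29). Rps6kb1, a ribosomal S6 kinase, was at 69.2, 45.9 and 49.3 CPM in WT and 43.8, 31.8, 25.1 and 28.5 CPM in Jag2sm libraries (log2 fold change -0.70 ± 0.26 SE, edgeR adjusted p = 0.161). It had the lowest value of the list. With Rps6kb2, Mtor, Rptor and Eif4ebp2 it made 5 of 13 genes that lay apart downwards, beside 12.2% of all tested genes. WT replicate 1 was the highest WT library for each of these, as for Mtor (98.0 CPM, against 50.4 and 46.5). Without it the log2 fold change was -0.60 for Rps6kb1 (edgeR adjusted p = 0.209). That of Mtor was -0.38 (edgeR adjusted p = 0.345), against -0.62 with all libraries. The highest value was that of Rictor (0.24, edgeR adjusted p = 0.686). None of the 4 mitochondrial elongation genes tested was called, with Tsfm highest at -0.0045 and Tufm lowest at -0.25. None of the 4 termination and recycling genes tested was called either, with Gspt1 at 0.27 and Hbs1l at -0.33.

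**Figure D5:**
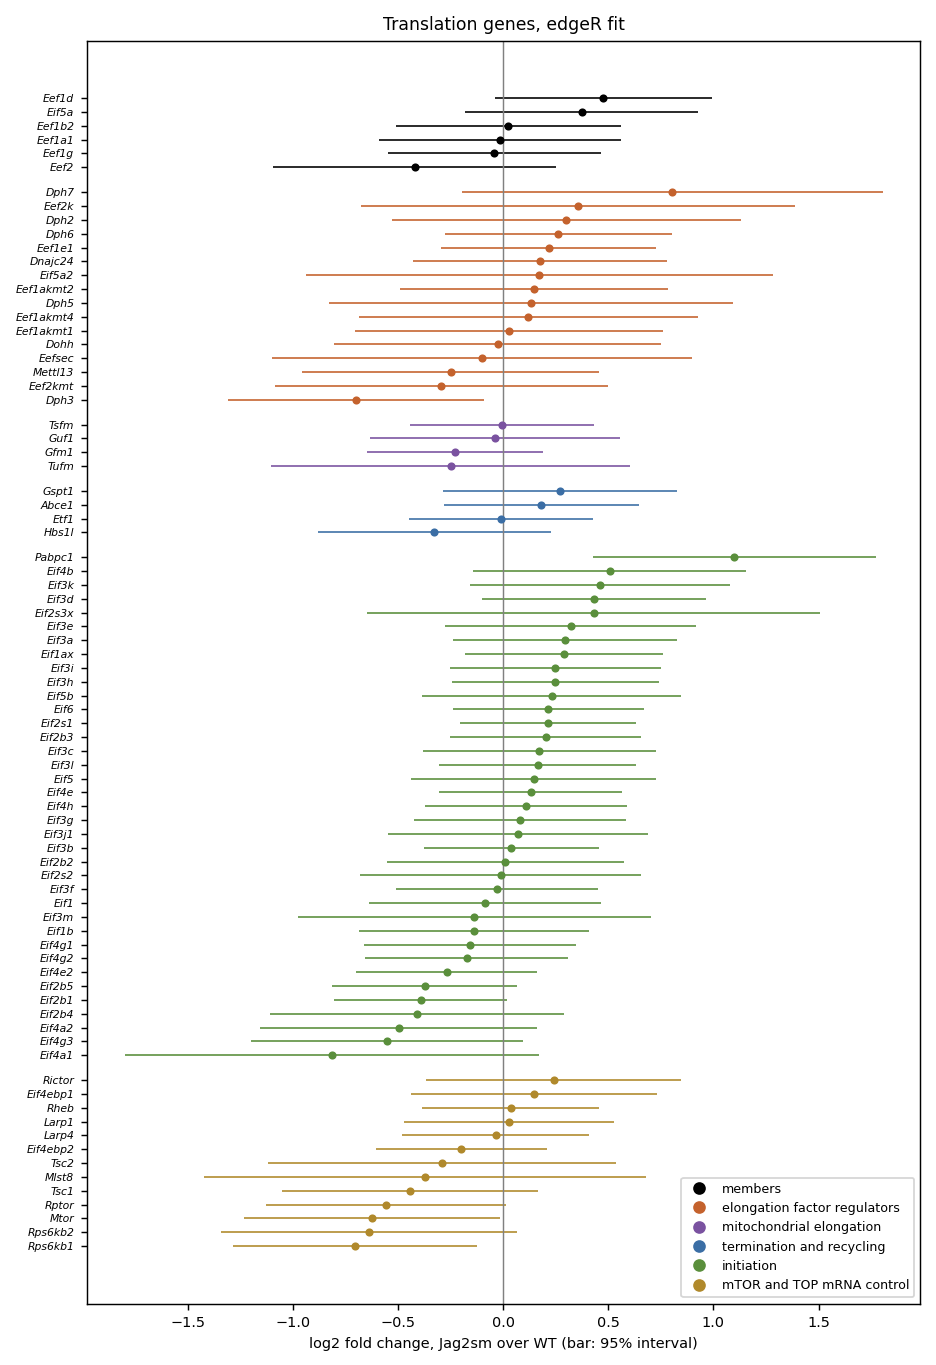
Log2 fold changes (Jag2sm over WT, edgeR) with 95% intervals for the 6 elongation factor genes tested and the 74 other translation genes tested, grouped by list and ordered by value. The intervals of all 6 elongation factor genes include 0, and the interval of Pabpc1 (0.43 to 1.77) lies farthest from it.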

How the data were processed

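The authors prepared barcoded direct cDNA libraries from 3 WT and 4 homozygous Jag2sm MuSC samples, sequenced them on Nanopore flow cells, mapped the reads with minimap2 2.17 (build GRCm39) and used htseq to obtain the raw counts per gene that they deposited for each library. The version and strand setting of htseq and the annotation release are not given in the sources used here. Rows that name no gene (no feature, ambiguous, too low mapping quality, not aligned, not unique) were left out of library sizes and tests. Too low mapping quality took 9.80% to 14.3% of aligned reads. The authors' table of DESeq2 fold changes and p-values was not used.

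Of 56748 identifiers, 56017 were found in GENCODE M39, which gave symbols, locations, lengths and, with the genome, sequences. Copies were other genes with at least 95% identity over at least 200 aligned coding bases (BLAST 2.17.0), a length set after the alignments were seen. Counts were filtered with filterByExpr (minimum count 10), scaled by TMM and tested with edgeR 4.0.16 in R 4.3.3, without covariates. Benjamini-Hochberg adjustment ran over 9489 genes, and a gene was called under 0.05. Ratios and shares were tested by exact two-sided permutation over 35 splits, with exact binomial intervals at 95% from SciPy 1.17.1 in Python 3.11.15, and a count of 0 allowed 3 counts. Genes were named by rule: the members, the highest and lowest value of each translation list with any gene called, the 5 genes most like Eef1a1, and copies. Other genes are named for context. The members and lists were chosen with earlier results of these data known. Scripts were tested on simulated data.

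Per the labels, the batch number equals the replicate number, so numbers 1 to 3 pair WT with Jag2sm samples, and Jag2sm replicate 4 has no partner. Deviations from genotype means correlated at 0.0740, 0.0144 and 0.0539 across genes within these pairs. Alternatives were DESeq2 1.42.0, limma-voom (limma 3.58.1), other scalings and filters, the replicate block, copies added to their member, and each library left out.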

Additional observations from a re-analysis of the deposited data

Results flagged for a closer look

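The Eif5a normalized count of Jag2sm replicate 1, 1264 CPM, lay far from the other 3 Jag2sm libraries at 949 to 962 CPM. Its gap to the nearest library was 0.961 of the range of the group, above Dixon's 95% limit for 4 samples. It was 1 of 14 sets of values examined in this way, and chance gives about 1 in 20. Without this library the log2 fold change of Eif5a was 0.27.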

How the results depend on the processing

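No elongation factor gene was called under any of the 17 alternatives. Eef1d and Eif5a stayed positive (0.30 to 0.64 and 0.21 to 0.54) and Eef2 negative (-0.59 to -0.0033) throughout. The cause was not tested for the changes of sign that follow. Eef1a1 turned positive with DESeq2 (0.035), library size alone (0.14), no filter (0.051), at least 10 counts in every library (0.16), the replicate block (0.019) and copies added without WT replicate 1 (0.18), and ran from -0.15 to 0.16 with single libraries left out. Eef1b2 turned negative with copies added without WT replicate 1 (-0.13, where Eef1g was at -0.32), an alternative chosen after seeing the data, and ran from -0.15 to 0.12 with single libraries left out. Eef1g turned positive with library size alone (0.12) and ran from -0.12 to 0.11, and it had no value at 10 counts in every library. Library size alone moved the median of all genes by 0.16, and Eef1a1 and Eef1g by a similar amount.

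Genes called numbered 594, and 1248 without a filter, 274 with at least 10 counts in every library (fewer genes tested), and 251 to 616 with single libraries left out (251 without Jag2sm replicate 2, 343 without WT replicate 2, 341 without WT replicate 3). Library size alone gave 241 higher and 384 lower, against 135 and 459. The replicate block gave 700 calls, changed no call of a member, and left Eef1d at 0.49 (edgeR adjusted p = 0.507) and Eif5a at 0.45 (0.625). It drops Jag2sm replicate 4.

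The Eef1d to Eef1b2 difference was 0.46 in the replicate block (exact sign-flip permutation p = 0.25, the smallest that 3 pairs allow) and 0.44 to 0.54 with single libraries left out, where no p under 0.05 is possible. With single libraries left out, the Eef1a2 share differed by -2.75 to 0.026 percentage points, Eef1b2 to Eef1a1 plus Eef1a2 by -0.28 to 0.36, Eef1g to Eef1b2 by -0.17 to 0.072, Eef2 to Eef1a1 plus Eef1a2 by -0.46 to -0.15 and Eif5a to that sum by 0.066 to 0.75. The share differed by -1.67 percentage points in the replicate block and by -0.24 with counts divided by transcript length. Eef1a2, where it could be fitted, had log2 fold changes of -3.43 with DESeq2 (adjusted p = 0.205), -2.43 without a filter (0.162) and -1.90 in the replicate block (0.476). Depth limits Eef1a2 most, at 15 reads, then Eef1g, at 9 reads in WT replicate 1.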
